A study of Homo sapiens with 4 samples.

Results

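SR proteins and hnRNP proteins are the 2 large families of RNA-binding regulators of pre-mRNA splicing. Their genes were taken here as the single gene symbols of the array annotation that are SRSF followed by a number, TRA2A, TRA2B, or HNRNP followed by letters and digits. With the brightest transcript cluster (the array's unit for 1 gene locus) kept per gene, 26 of the 14232 genes with a single symbol were members: 11 of the SR class (9 SRSF genes, TRA2A and TRA2B) and 15 of the hnRNP class. Symbols of the same pattern that occurred only on clusters shared by several symbols, among them SRSF2, SRSF5, HNRNPA1, HNRNPK and HNRNPUL2, were left out because such a cluster cannot be assigned to 1 gene.

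SR proteins carry RNA recognition motifs and a domain rich in arginine and serine, bind exonic enhancers and recruit the spliceosome to nearby splice sites. hnRNP proteins coat nascent transcripts through RNA recognition motifs or related domains and often silence splice sites, so that the balance of both families decides whether many alternative exons are kept. Several members also control their own messages, through poison exons whose inclusion sends the transcript to nonsense-mediated decay.

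The study asked how ADAR, the enzyme that converts adenosine to inosine in double-stranded RNA, acts on alternative splicing, and measured total RNA on Affymetrix whole-transcript exon arrays. The groups were HepG2 with a plasmid-borne siRNA against ADAR1 (ADARkd), HepG2 with a plasmid-borne scrambled siRNA (SCR), K562 with the ADAR1 siRNA and K562 with the scrambled siRNA, 1 array each, 4 in all. HepG2 comes from a hepatocellular carcinoma and K562 from a chronic myeloid leukaemia with erythroid traits; all cells were stably transfected, and nothing given here says whether a line was 1 clone or a pool. The siRNA was the one of several that lowered ADAR most. Values are log2 of the deposited intensity. Each arm of a line is a single array, so differences within a line have no replicate behind them, and this small number of arrays limits precision throughout.

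ADAR itself stood at 7.27 in ADARkd and 8.96 in SCR on the arrays labelled HepG2 (31.0% of the SCR intensity), and at 6.78 in ADARkd and 7.99 in SCR in K562 (43.2%). On the arrays labelled HepG2 most hepatocyte markers went against the label. Of 17 measured, 2 (CPS1 and FOXA1) reached the median level of all genes, and ALB, which encodes albumin, stood at 2.97 in ADARkd and 3.04 in SCR. CPS1 was bright there, at 10.56 in ADARkd and 10.89 in SCR, and stood at 3.29 in ADARkd and 3.21 in SCR in K562. Of 9 measured erythroid markers, 8 lay above the median level in K562. For this reason the first pair is called the arrays labelled HepG2 throughout, and every direction drawn from it carries that limit. Median intensities of the 4 arrays lay between 36.1 and 36.96.

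A member counts as kept in a line where the mean of its 2 log2 values reached the median over all genes, 5.31 on the arrays labelled HepG2 and 5.28 in K562. Of the 26 members, 25 were kept in both lines. The exception was SRSF12, an SR-related splicing repressor, at 3.77 in ADARkd and 3.77 in SCR on the arrays labelled HepG2, and at 3.95 in ADARkd and 3.80 in SCR in K562. Intensities of different transcript clusters are not compared with each other, since each cluster has its own probes. Many SR and hnRNP genes have close paralogs or processed pseudogenes whose RNA can bind the same probes, which makes their values uncertain to that extent.

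**Figure D1:**
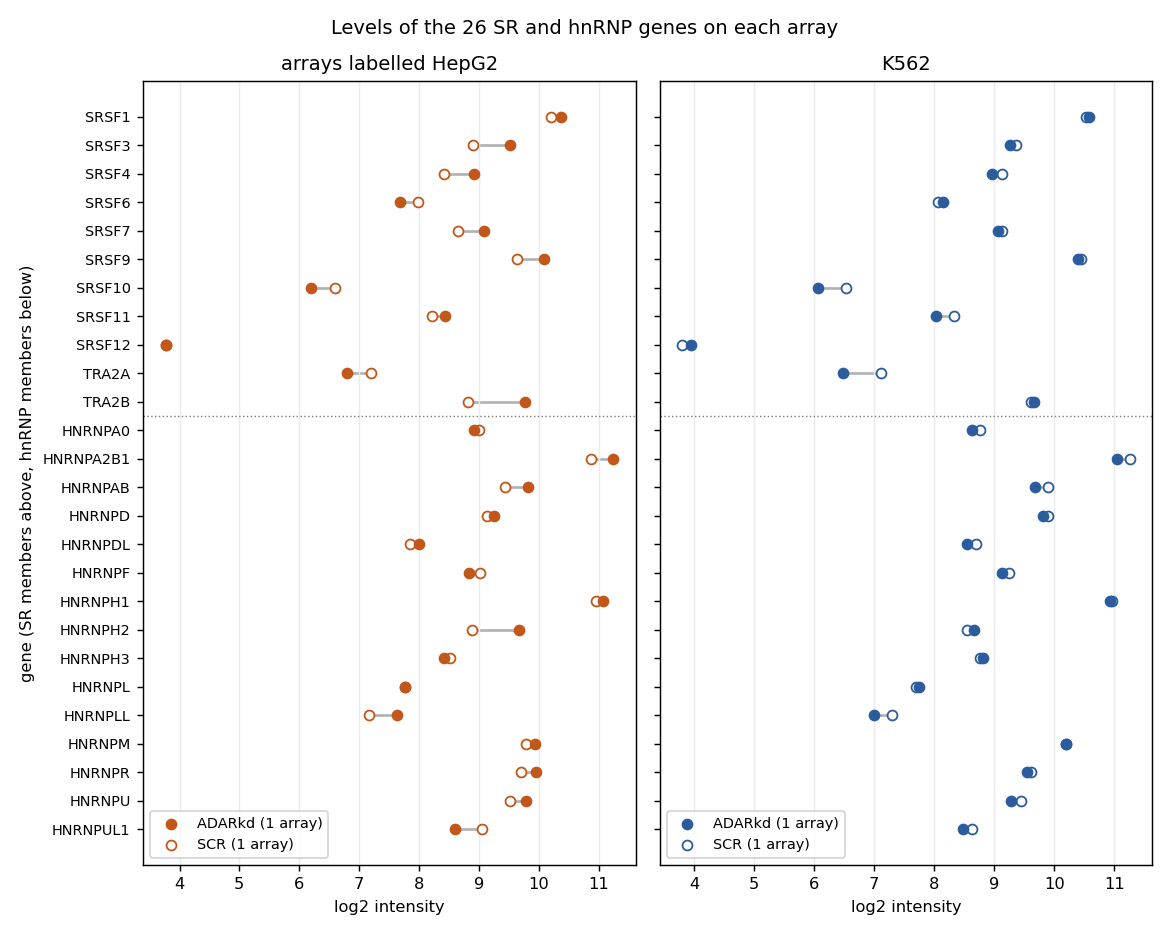
Log2 intensity of the 26 genes (rows) on each of the 4 arrays, with ADARkd as filled and SCR as open circles, 1 array per circle; the left panel shows the arrays labelled HepG2 and the right panel K562. TRA2B and HNRNPH2 have the widest gaps between the arms on the arrays labelled HepG2, TRA2A in K562, and SRSF12 is the single member under the filter level.

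Within each line a member was counted where ADARkd and SCR were at least 1.5-fold apart (0.58 on the log2 scale), a size with no p-value. On the arrays labelled HepG2, 3 of 25 kept members were that much higher in ADARkd and 0 that much lower. The 3 were TRA2B, HNRNPH2 and SRSF3. This is 12% of the members, against 18.1% of the 7116 genes kept in that line, and 12.4% of genes were that much higher and 5.73% that much lower. The members' share was not above that of all kept genes.

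TRA2B, the SR-like protein that binds GA-rich exonic enhancers and promotes exon inclusion, stood at 9.78 in ADARkd and 8.81 in SCR on the arrays labelled HepG2. The difference was 0.97 on the log2 scale, a 1.96-fold higher intensity, and 0.84 after quantile normalization as well as after loess. In K562 TRA2B stood at 9.66 in ADARkd and 9.62 in SCR, a difference of 0.04. The SCR array labelled HepG2 was the low one of the 4, and the other 3 arrays lay close together.

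HNRNPH2, an X-linked member of the hnRNP H and F group that binds runs of guanines, stood at 9.67 in ADARkd and 8.88 in SCR on the arrays labelled HepG2. The difference was 0.79, a 1.73-fold higher intensity, with 0.66 after quantile normalization and 0.65 after loess. In K562 it stood at 8.67 in ADARkd and 8.55 in SCR, a difference of 0.12. Here the ADARkd array labelled HepG2 was the high one, above the other 3.

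SRSF3, the smallest SR protein and an adaptor for the export of spliced messages, stood at 9.52 in ADARkd and 8.90 in SCR on the arrays labelled HepG2. The difference of 0.62, 1.53-fold, was just past the threshold and was under it after quantile normalization and after loess (0.48 in each). In K562 SRSF3 stood at 9.26 in ADARkd and 9.36 in SCR, a difference of -0.11, so the arms lay in the opposite order. The lowest of the 4 values was again that of the SCR array labelled HepG2.

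The promoters of these 3 genes are shown because they are the members past 1.5-fold on the arrays labelled HepG2. Each run covers the 250 bases before and the first 50 bases after the annotated start, read 5′ to 3′ on the gene's strand, and comes from RefSeq on GRCh38.p14. Capitals mark every match, on either strand, of 8 short motifs: the GC box GGGCGG, the CCAAT box CCAAT, the TATA box TATAAA, the ETS site CCGGAAG, the core of the cAMP response element TGACG, the E-box CACGTG, the YY1 core AAGATGG and the NRF1 core TGCGCA; adjacent or overlapping matches merge into 1 run.
TRA2B (GRCh38.p14, chr3:185937965-185938264, minus strand): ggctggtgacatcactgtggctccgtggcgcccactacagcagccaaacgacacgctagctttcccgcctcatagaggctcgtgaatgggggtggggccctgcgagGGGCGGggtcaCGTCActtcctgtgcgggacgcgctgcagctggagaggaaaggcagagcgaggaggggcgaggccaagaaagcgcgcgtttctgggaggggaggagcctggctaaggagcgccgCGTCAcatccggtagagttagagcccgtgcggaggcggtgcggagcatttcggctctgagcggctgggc
HNRNPH2 (GRCh38.p14, chrX:101407972-101408271, plus strand): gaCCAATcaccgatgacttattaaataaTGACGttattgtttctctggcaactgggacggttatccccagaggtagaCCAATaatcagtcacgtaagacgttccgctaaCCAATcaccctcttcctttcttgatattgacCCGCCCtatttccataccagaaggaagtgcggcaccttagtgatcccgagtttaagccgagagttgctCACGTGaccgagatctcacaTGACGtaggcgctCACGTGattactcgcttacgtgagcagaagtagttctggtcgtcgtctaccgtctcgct
SRSF3 (GRCh38.p14, chr6:36594112-36594411, plus strand): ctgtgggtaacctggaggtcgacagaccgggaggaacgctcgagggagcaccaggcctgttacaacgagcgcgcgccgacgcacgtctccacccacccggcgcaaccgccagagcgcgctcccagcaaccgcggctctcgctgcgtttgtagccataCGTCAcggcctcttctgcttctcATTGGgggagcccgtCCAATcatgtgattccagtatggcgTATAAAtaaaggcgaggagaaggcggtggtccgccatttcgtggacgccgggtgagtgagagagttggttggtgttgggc

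The SRSF3 window held a TATA box that begins 30 bases before the start, and CCAAT boxes 70 and 55 bases before it. The HNRNPH2 window held 3 CCAAT boxes and 2 E-boxes, the E-boxes beginning 42 and 9 bases before the start, and that of TRA2B a GC box and no CCAAT box. All 3 windows held the TGACG core, which 48% of the 25 members with a promoter in the table held, against 35.9% of 6681 promoters of genes kept in either line and 25.01% of all 27305 promoters in the table. The TATA box was held by 16% of the members, against 5.51% of kept genes and 11.95% of all promoters, and the E-box by 24%, against 10.8% and 7.43%. The CCAAT box was held by 44% of the members, against 37.1% of kept genes and 35.7% of all promoters. The GC box was held by 68%, against 72.0% and 44.6%, the ETS site by 16%, against 20.5% and 10.7%, and the YY1 core by 0 members, against 8.17% and 6.06%. The NRF1 core was held by 8%, against 14.3% and 8.42%, and by none of the 3 windows. For NRF1 the order depended on the letters searched: a longer, gapped spelling tried first put the members above the kept genes. Median GC content was 66.3% for members and 66% for kept genes, and HNRNPH2 had the lowest among the members at 48.7%. A match is a run of letters in this window and not a measured binding site.

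The other SR members on the arrays labelled HepG2 spread to both sides. SRSF4, a larger SR protein, stood at 8.92 in ADARkd and 8.41 in SCR, a difference of 0.51. SRSF7, a zinc knuckle SR protein that acts in splicing and export, stood at 9.09 in ADARkd and 8.64 in SCR (0.45), and SRSF9, a short SR protein close to SRSF1, at 10.08 in ADARkd and 9.64 in SCR (0.44). These 3 and SRSF3 all lay higher in ADARkd by similar amounts. SRSF11, an SR-related protein, differed by 0.22, and SRSF1, the founding SR protein and an oncogene product, by 0.17, at 10.38 in ADARkd and 10.21 in SCR.

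On the lower side, SRSF10, which acts as a general splicing repressor when dephosphorylated, stood at 6.19 in ADARkd and 6.60 in SCR on these arrays, a difference of -0.41. SRSF6, another classical SR protein, stood at 7.68 in ADARkd and 7.99 in SCR, a difference of -0.31. Neither was 1.5-fold lower. TRA2A, the paralog of TRA2B, differed by -0.39 by its brightest cluster, with another cluster that disagreed. The median difference of the 10 kept SR members was 0.33 on the log2 scale, against 0.11 for all genes kept in this line, and was 0.21 after quantile normalization and 0.19 after loess. The median of all kept genes was 0.01 after quantile normalization and -0.00014 after loess.

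Among the hnRNP members on the arrays labelled HepG2, HNRNPLL, known as a regulator of CD45 exons in lymphocytes, came next after HNRNPH2, at 7.64 in ADARkd and 7.16 in SCR (a difference of 0.48). HNRNPAB, a binder of single-stranded nucleic acids, stood at 9.82 in ADARkd and 9.43 in SCR (0.39), and HNRNPA2B1, which binds and sorts RNAs with short recognition motifs, at 11.25 in ADARkd and 10.88 in SCR (0.37). HNRNPU, a nuclear scaffold protein, differed by 0.28 and HNRNPR by 0.25. These 5 lay higher in ADARkd and none reached 1.5-fold.

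The lowest hnRNP member was HNRNPUL1, a relative of HNRNPU with a role in the DNA damage response, at 8.60 in ADARkd and 9.05 in SCR, a difference of -0.44. It passed 1.5-fold on the lower side after quantile normalization and after loess (-0.59 in each). HNRNPF, which like HNRNPH2 binds guanine runs, stood at 8.83 in ADARkd and 9.01 in SCR (-0.18). HNRNPH3, of the same group, stood at 8.42 in ADARkd and 8.52 in SCR (-0.10), and HNRNPA0, a binder of AU-rich elements, differed by -0.09. The remaining hnRNP genes lay between 0.00 (HNRNPL) and 0.16 (HNRNPM). The median of the 15 hnRNP members was 0.15, or 0.02 after quantile normalization and 0.05 after loess, close to that of all kept genes in each case.

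**Figure D2:**
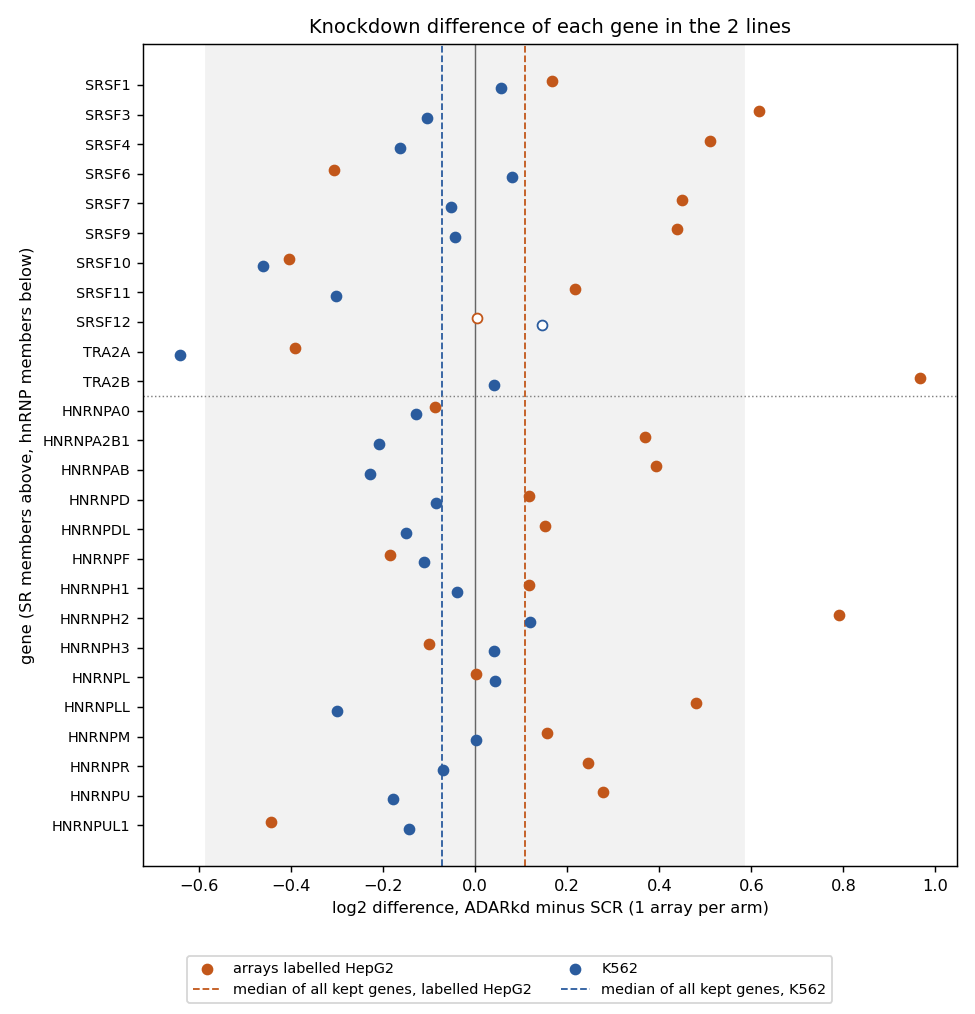
Log2 difference, ADARkd minus SCR, of each gene (rows) on the arrays labelled HepG2 (orange) and in K562 (blue), 1 array per arm; open circles mark SRSF12, which was under the filter level, the grey band spans differences under 1.5-fold and dashed lines give the median of all kept genes. TRA2B at 0.97, HNRNPH2 at 0.79 and SRSF3 at 0.62 lie right of the band in orange, TRA2A at -0.64 left of it in blue.

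Stromal and epithelial markers differed between the arms on the arrays labelled HepG2. Of 10 measured fibroblast and stromal markers 7 were kept. Of these, 4 were at least 1.5-fold lower in ADARkd (COL1A1, COL3A1, FN1 and FAP) and 2 higher (LUM and DCN). Of all genes kept in this line, 5.73% were that much lower and 12.4% that much higher. The intensity summed over all 10 stromal markers was 2199 in ADARkd and 2199 in SCR. Bright clusters such as LUM weigh most in such a sum, and the median difference of the 7 kept markers was -1.12. Of 6 epithelial markers 4 were kept and 3 were at least 1.5-fold higher in ADARkd (KRT8, KRT18 and KRT19), while EPCAM and CDH1 lay under the filter. Summed over all 6, the intensity was 2241 in ADARkd and 1497 in SCR. After quantile normalization and after loess the stromal split was 5 lower and 1 higher, with VIM (-0.70 in each) past 1.5-fold and DCN (0.51 and 0.46) under it, and 2 epithelial markers stayed past it, KRT18 (0.56 and 0.54) being under it. Of 4 measured lymphocyte markers none was kept. Their part in the differences of the SR and hnRNP genes was not tested. In RNA of whole cultures, fewer cells of a type and less RNA per cell cannot be told apart.

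In K562 the differences of the same genes spread less, with an SD across kept members of 0.17, against 0.37 on the arrays labelled HepG2; across all kept genes the SD was 0.19 and 0.47. Of 25 kept members, 1 was at least 1.5-fold lower in ADARkd (4%) and 0 were higher, against 1.03% of the 7116 genes kept in K562 in either direction, 0.759% lower and 0.267% higher. The 1 gene was TRA2A, at 6.47 in ADARkd and 7.11 in SCR, a difference of -0.64 on the log2 scale, 1.56-fold lower. After quantile normalization it was -0.56 and after loess -0.55, short of the threshold, so that 0 members passed.

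SRSF10 was the next lowest in K562, at 6.06 in ADARkd and 6.53 in SCR, a difference of -0.46. SRSF11 stood at 8.03 in ADARkd and 8.33 in SCR, and HNRNPLL at 6.99 in ADARkd and 7.29 in SCR, with differences of -0.30 each. HNRNPAB stood at 9.67 in ADARkd and 9.90 in SCR (-0.23) and HNRNPA2B1 at 11.05 in ADARkd and 11.26 in SCR (-0.21), the reverse of their order on the arrays labelled HepG2. HNRNPU differed by -0.18 and SRSF4 by -0.16. At the high end, HNRNPH2 differed by 0.12, and SRSF6 stood at 8.14 in ADARkd and 8.06 in SCR (0.08). SRSF1 stood at 10.58 in ADARkd and 10.52 in SCR (0.06), and HNRNPL, TRA2B and HNRNPH3 differed by 0.04 each. The median was -0.08 over the SR members and -0.11 over the hnRNP members, against -0.07 over all kept genes. Of the markers kept in K562 (4 epithelial, 1 stromal, 8 erythroid and the hepatocyte marker FOXA1), 0 were 1.5-fold apart there, against 1.03% of all kept genes.

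Side by side, 13 of the 25 members kept in both lines (52%) were higher in ADARkd on the arrays labelled HepG2 and lower in K562. The opposite order was held by 2 members (8%), against 11.6% of all genes kept in both lines. Among all 6204 genes kept in both lines, 41.4% had the first pattern. After quantile normalization 9 members (36%) and 24.95% of genes had it, and after loess 9 members and 24.1% of genes. Lower in ADARkd in both lines were 5 members (20%), against 26.2% of genes. These were SRSF10 (-0.41 on the arrays labelled HepG2 and -0.46 in K562), TRA2A, HNRNPUL1, HNRNPF and HNRNPA0. Higher in both lines were 5 members (20%), against 20.9% of genes. The difference between the lines' knockdown differences cannot be tested, because it uses up the residual degrees of freedom.

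TRA2A was the member with 2 transcript clusters, and these did not give the same picture. The clusters had nearly the same mean over the 4 arrays, 6.89 and 6.85, so the choice of the brightest rested on a gap of 0.04. By the brighter cluster TRA2A stood at 6.80 in ADARkd and 7.19 in SCR on the arrays labelled HepG2, a difference of -0.39. By the other cluster it stood at 7.52 in ADARkd and 6.34 in SCR, a difference of 1.18 or 2.26-fold higher in ADARkd, which is larger than that of TRA2B. In K562 the brighter cluster differed by -0.64 and the other by -0.05, at 6.75 in ADARkd and 6.80 in SCR. With the other cluster in place of the brighter one, a choice made after the values were seen, 4 members passed 1.5-fold on the arrays labelled HepG2 and 0 in K562. The direction of TRA2A on the arrays labelled HepG2 is therefore not settled by these values, and which exons each cluster covers was not analysed here.

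**Figure D3:**
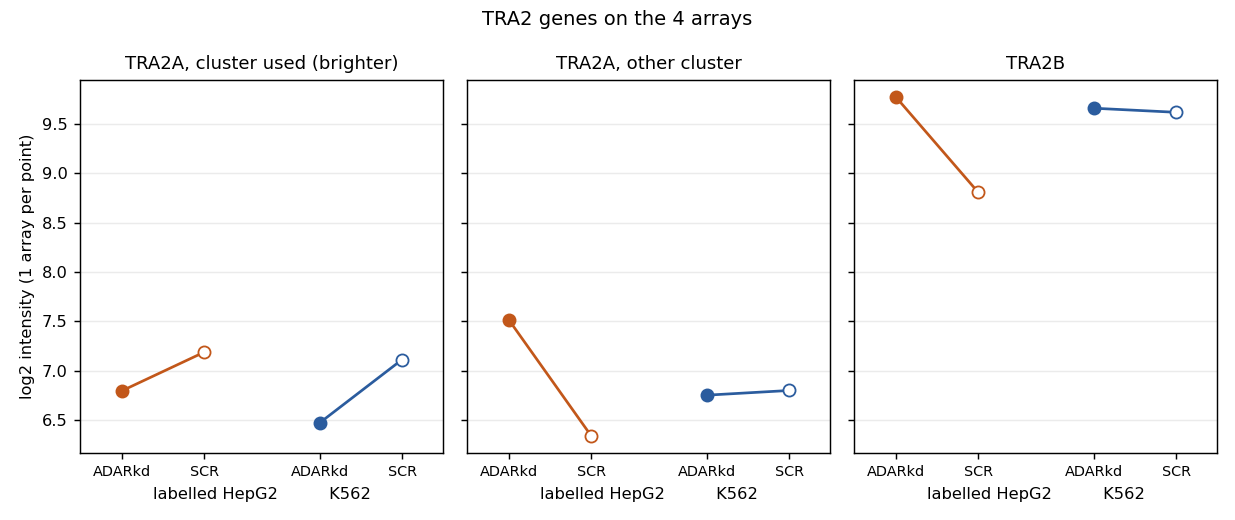
Log2 intensity of the 2 TRA2A transcript clusters and of TRA2B on the 4 arrays, with ADARkd (filled) left of SCR (open) for the arrays labelled HepG2 (orange) and K562 (blue), 1 array per point. On the arrays labelled HepG2 the TRA2A cluster used is lower in ADARkd by 0.39, while the other cluster and TRA2B are higher by 1.18 and 0.97.

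Other paralogs among the members also differed from each other. HNRNPH1, the close relative of HNRNPH2, stood at 11.07 in ADARkd and 10.95 in SCR on the arrays labelled HepG2, a difference of 0.12 where that of HNRNPH2 was 0.79. In K562 HNRNPH1 differed by -0.04. HNRNPL, a binder of CA repeats, differed by 0.00 on the arrays labelled HepG2 where its paralog HNRNPLL differed by 0.48, and by 0.04 in K562 where HNRNPLL differed by -0.30. HNRNPD, also known as AUF1 for its role in the decay of AU-rich messages, and HNRNPDL kept together, at 0.12 and 0.15 on the arrays labelled HepG2 and at -0.09 and -0.15 in K562. HNRNPF differed by -0.18 and -0.11 in the same order of lines, and HNRNPH3 by -0.10 and 0.04. These are sizes from single arrays with no test.

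A difference shared by both lines was tested with limma (line and arm as terms, 1 residual degree of freedom, Benjamini-Hochberg adjustment over 6204 genes). At an adjusted p under 0.05, 0 of 25 members and 0% of all genes passed. ADAR, the target of the siRNA, did not pass either, with a shared difference of -1.45. The lowest limma adjusted p over all genes was 0.87, so the adjusted test could not single out any gene, member or not. At an unadjusted p under 0.05, 1 member passed, TRA2A at -0.52 ± 0.21 (SE, 2 arrays per arm), against 2.89% of all genes. Its adjusted limma p was 0.9996, and with its other transcript cluster, with the mean of clusters or under the 75th percentile filter 0 members passed at the unadjusted threshold. After quantile normalization 3 passed it (HNRNPH2, SRSF10 and TRA2A), against 3.58% of genes, and after loess 4 (these and TRA2B), against 3.88%. None passed after adjustment in any of these. TRA2B had a shared difference of 0.50 ± 0.24, HNRNPH2 of 0.45 ± 0.22 and SRSF10 of -0.43 ± 0.19, each with a limma adjusted p of 0.9996.

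The same model compared the lines, K562 minus the arrays labelled HepG2, over 8028 genes kept in either. At a limma adjusted p under 0.05 and at least 2-fold, 0 of 25 members passed, against 25.1% of all genes. At an unadjusted p under 0.05 the count was 4, against 50.7% of genes. Without the 2-fold bound 4 members passed, against 42% of genes. The median absolute difference between the lines was 0.26 on the log2 scale for members and 0.51 for all genes tested. All 25 members tested were kept in both lines. Of the 8028 genes 6204 were kept in both, and the rest entered through the 1 line in which they reached the filter level. Large line differences are partly built into that background, so these shares and medians do not come from like sets. Whether the members' counts stand apart from those of all genes was not tested.

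HNRNPDL was higher in K562 by 0.71 ± 0.20 (SE, 2 arrays per line; limma adjusted p = 0.029). It stood at 8.55 (ADARkd) and 8.70 (SCR) in K562 and at 7.99 (ADARkd) and 7.84 (SCR) on the arrays labelled HepG2. HNRNPD was higher in K562 by 0.66 ± 0.18 (limma adjusted p = 0.0223). Its values were 9.80 (ADARkd) and 9.89 (SCR) in K562 and 9.25 (ADARkd) and 9.13 (SCR) on the arrays labelled HepG2. These relatives, both binders of AU-rich RNA, differed between the lines by nearly the same amount. SRSF9 was higher in K562 by 0.55 ± 0.18 (limma adjusted p = 0.0443), at 10.39 (ADARkd) and 10.44 (SCR) in K562 and at 10.08 (ADARkd) and 9.64 (SCR) on the arrays labelled HepG2.

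HNRNPH2 alone among these 4 was higher on the arrays labelled HepG2, and its difference, K562 minus those arrays, was -0.67 ± 0.22 (adjusted p = 0.0486 by limma). The K562 arrays stood at 8.67 (ADARkd) and 8.55 (SCR) and those labelled HepG2 at 9.67 (ADARkd) and 8.88 (SCR). The ADARkd array labelled HepG2 was the highest of the 4. Next in size, with adjusted p-values above 0.05 by limma, were SRSF4 at 0.37, TRA2B at 0.35, HNRNPM at 0.33, HNRNPH3 at 0.31 and SRSF6 at 0.26 toward K562, and HNRNPU at -0.29, HNRNPUL1 at -0.27, HNRNPA0 at -0.26, HNRNPLL at -0.25, HNRNPR at -0.25, TRA2A at -0.20 and SRSF11 at -0.14 toward the arrays labelled HepG2. With the 4 that passed, these are the 8 largest each way; on the K562 side HNRNPF (0.26), SRSF1 (0.26), SRSF7 (0.23) and HNRNPAB (0.16) follow and are larger than SRSF11. HNRNPL at -0.05 and HNRNPH1 at -0.07 were the closest to 0. With log2(value + 16), and with eBayes without an intensity trend, the count without the 2-fold bound was 2, HNRNPD and HNRNPDL in both cases. It was 3 with the mean of clusters, where HNRNPH2 dropped out, and 3 with no filter, where SRSF9 did. Both arrays of a line may come from 1 culture and carry different siRNAs, so these p-values are approximate. With arm as a term, the 1 residual degree of freedom is the gap between the knockdown differences of the lines. The SEs and p-values rest on that gap, moderated over genes, and on no spread between replicates.

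**Figure D4:**
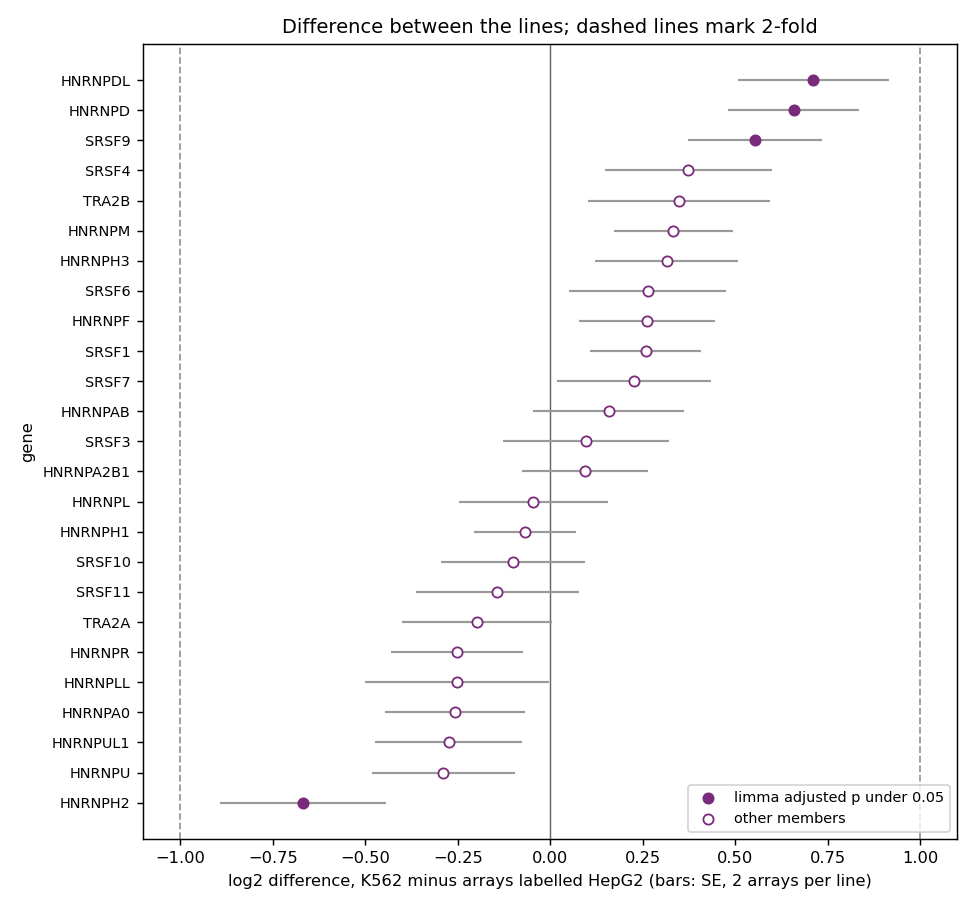
Log2 difference, K562 minus the arrays labelled HepG2, of the 25 kept genes (rows, in order of the difference), as points with SE bars from limma over 2 arrays per line; filled points have a limma adjusted p under 0.05 and dashed lines mark 2-fold. HNRNPDL (0.71), HNRNPD (0.66) and SRSF9 (0.55) lie on the K562 side and HNRNPH2 (-0.67) on the other, and no gene reaches 2-fold.

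The genes around the members in the same pathway were described from 4 lists. Of 9 measured SR kinases and transport factors, 1 of 8 kept on the arrays labelled HepG2 was 1.5-fold higher in ADARkd, TNPO1, a nuclear import receptor that carries hnRNP proteins, at 9.96 in ADARkd and 9.36 in SCR (0.60). This is 12.5% of the list, against 18.1% of all kept genes, and 0 passed after quantile normalization (TNPO1 at 0.48) or loess (0.46). The SR kinases SRPK1 and SRPK2 differed by 0.01 and -0.01 there, and by -0.21 and -0.33 in K562. CLK3 and CLK4, which phosphorylate SR proteins in the nucleus, differed by 0.14 and 0.07 on the arrays labelled HepG2. In K562, 0 of 9 were 1.5-fold apart, against 1.03% of all kept genes.

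Of RS-domain coactivators and SR-related proteins, 14 were kept on the arrays labelled HepG2, 2 of them 1.5-fold higher in ADARkd and 1 lower, 21.4% in all against 18.1% of all kept genes. BCLAF1, an RS-rich protein of messenger ribonucleoproteins, stood at 8.70 in ADARkd and 7.70 in SCR (1.01), and SREK1, an SR-related regulatory protein, at 6.30 in ADARkd and 5.65 in SCR (0.65). LUC7L3, a U1-associated protein, stood at 8.86 in ADARkd and 9.46 in SCR (-0.60). SREK1 was under 1.5-fold after quantile normalization (0.57) and with log2(value + 16) (0.52), and LUC7L3 with log2(value + 16) (-0.58). The median of this list was 0.31, near the 0.33 of the SR members. In K562 0 of 15 were 1.5-fold apart, against 1.03% of all kept genes. U2AF1, the small subunit of the factor that reads the 3′ splice site, differed by -0.54 there.

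Of the other hnRNP-type proteins, 17 were kept on the arrays labelled HepG2, 1 of them 1.5-fold higher in ADARkd and 1 lower, 11.8% in all against the same 18.1%. TAF15, an RNA-binding protein, stood at 8.81 in ADARkd and 8.18 in SCR (0.62), and CIRBP, a cold-inducible RNA-binding protein, at 7.95 in ADARkd and 8.67 in SCR (-0.72). TAF15 was under 1.5-fold after quantile normalization (0.48) and after loess (0.47), which left CIRBP. PTBP1, which binds pyrimidine tracts and silences neuronal exons, differed by 0.07. Of the tissue-type regulators 0 of 12 kept were 1.5-fold apart, against 18.1% of all kept genes, with RBM10 at 0.54 and RBM47 at 0.48. ESRP1, an epithelial splicing regulator, differed by -0.66 but lay under the filter in both lines. In K562 0 of 18 and 0 of 13 in these lists were 1.5-fold apart, against 1.03% of all kept genes.

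**Figure D5:**
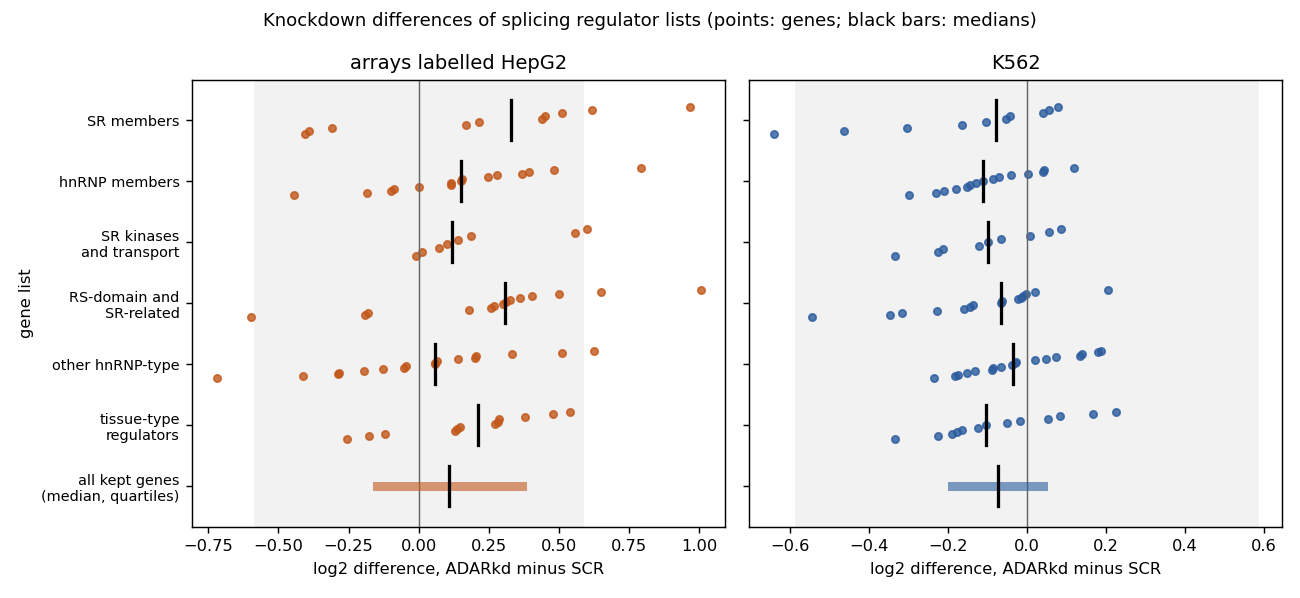
Log2 difference, ADARkd minus SCR, of the kept SR and hnRNP members and of 4 lists of related genes (points are genes, black bars medians, the grey band differences under 1.5-fold) on the arrays labelled HepG2 (left) and in K562 (right); the bottom row gives the median and quartiles of all kept genes. SR members and SR-related proteins have medians of 0.33 and 0.31 on the arrays labelled HepG2, and every list in K562 has a median between -0.11 and 0.

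The same lists were compared between the lines. The share over all genes was 25.1% at a limma adjusted p under 0.05 and 2-fold. Of the tissue-type regulators 5 of 14 tested passed: CELF2 was higher in K562 by 3.83 ± 0.20 and KHDRBS3 by 1.38 ± 0.22. MBNL3 at -2.28 ± 0.20, RBFOX2 at -2.02 ± 0.21 and RBM47 at -1.67 ± 0.21 stood higher on the arrays labelled HepG2. Among other hnRNP-type proteins 5 of 18 passed, with MSI1 (1.58), RALY (1.07) and ELAVL1 (1.04) higher in K562 and RBM3 (-1.34) and PTBP2 (-1.13) lower. In the SR-related list SON (1.22) was the 1 of 15, and of the SR kinases and transport factors 0 of 9 passed. These genes were named after their values were seen, because they passed. The dimmer side of CELF2, KHDRBS3, MSI1 and RBM47 lay under the filter level, so the sizes of their differences are uncertain. They entered the test only through the line where they were brighter. Their passing, and with it the counts of 5 of 14 and 5 of 18, therefore rests partly on the filter. The 25.1% over all genes holds such genes too. The difference between the lists and the members was not tested.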

How the data were processed

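Per the labels' protocols, TRIzol-purified RNA was biotin-labelled with an Affymetrix whole-transcript kit. The deposited table holds 1 intensity per transcript cluster and array, linear and positive; the submitters' processing notes name RMA and the build hg18, without a version. It had 17881 clusters, of which 14432 had 1 symbol in the platform annotation. By Entrez number 14404 of them were found in RefSeq (GRCh38.p14), with 0 symbols changed. Log2 was taken without an offset.

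Differences were computed as ADARkd minus SCR within each line, with no test. The two-sided fits (limma 3.58.1, R 4.3.3) moderated the variances along the intensity trend. With 1 residual degree of freedom the adjusted p-values are approximate. In simulated data with no effect the fits called a few genes in some runs. Those data had independent noise and no knockdown difference between lines, so they do not show how approximate the p-values are. Figures were drawn with matplotlib 3.10.9. The alternatives were quantile normalization, cyclic loess, log2(value + 16), the mean of all clusters of a gene, no filter and a filter at the 75th percentile, eBayes without a trend, and the line comparison without its 2-fold bound.

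The members and lists were chosen with earlier results of these data known. The rule for naming was all members called in any comparison, the 6 highest and 6 lowest kept members per line, those with the largest line differences, and list genes at least 1.5-fold apart. Paralogs were to be paired by protein identity, but no protein sequences were used here, so pairs were taken by name. Promoters of 25 members were matched by Entrez number; TRA2A was not matched. Motifs were chosen after the expression values were seen, and the NRF1 motif was searched in a long and a short spelling, of which the short one is reported. Coordinates of clusters are not given, because the builds differ.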

Additional observations from a re-analysis of the deposited data

Results flagged for a closer look

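TRA2A is listed for the transcript cluster that was not used: its difference, ADARkd minus SCR on the arrays labelled HepG2, was 1.18, against -0.39 for the cluster used. SRSF3 is listed because it was higher in ADARkd on the arrays labelled HepG2 (0.62) and lower in K562 (-0.11). The same holds for BCLAF1 (1.01 and -0.23), SREK1 (0.65 and -0.06) and TNPO1 (0.60 and -0.10). The difference between the lines was not tested for any of these, and each value rests on 1 array per arm.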

How the results depend on the processing

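Of the counts and medians that answer a comparison, 43 values under an alternative stayed on the same side or within 1.5 times and 9 moved. The shared count was 0 over all genes too in each setting, so its staying at 0 says little. A median under 1.5-fold counted as the same if it kept its sign. That of the hnRNP members on the arrays labelled HepG2 did so while going from 0.15 to 0.02 after quantile normalization. The count of members 1.5-fold apart in K562, 1 as reported, was 0 after quantile normalization, after loess, with log2(value + 16), with the mean of all clusters, under a filter at the 75th percentile and with the other TRA2A cluster. For K562 minus the arrays labelled HepG2, the count of 0 was 4 by adjusted p alone. That count of 4 was 2 with log2(value + 16), 2 without an intensity trend, 3 with the mean of all clusters and 3 with no filter. On the arrays labelled HepG2 the count stayed at 3 under the 6 settings other than the TRA2A cluster, but after quantile normalization and after loess 2 of the 3 genes were shared with those reported, with HNRNPUL1 in place of SRSF3 and a split of 2 higher and 1 lower. Among all kept genes there, 879 were higher and 408 lower as deposited, 602 and 539 after quantile normalization, and 583 and 566 after loess. The count over all genes was 1287 there and 598 under the 75th percentile filter. In K562 it was 73 (19 higher, 54 lower), 67 (41 higher, 26 lower) after quantile normalization, 68 (39 higher, 29 lower) after loess, 30 with log2(value + 16), 247 with no filter and 14 with the stricter filter. The sign of single members changed for HNRNPL after quantile normalization and HNRNPD and HNRNPL after loess on the arrays labelled HepG2. In K562 it changed for HNRNPD after quantile normalization and for HNRNPH1, SRSF7 and SRSF12 after both, and SRSF9 turned to 0 or above. TRA2A on the arrays labelled HepG2 turned to 0.39 with the mean of its clusters and 1.18 with the other cluster. The shared effect was fitted with line as a term, so each ADARkd array was set against the SCR array of its own line, over 2 pairs. How far each probe lay over background was not analysed here.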
